A study of Mus musculus with 6 samples.

Results

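The Bcl2 family sets the threshold for the mitochondrial pathway of apoptosis, and 10 of its genes were examined in mouse 4-cell embryos, out of 55335 genes in the expression files. They were taken by gene symbol: Bcl2l10, Mcl1 and Bcl2l1, which are counted as pro-survival; Bax, Bak1 and Bok, the effectors; and Bid, Bbc3, Pmaip1 and Bcl2l11, the BH3-only genes. Each symbol matched 1 row in each of the 6 libraries. The libraries form 2 groups of 3. DRB embryos were mouse embryos exposed as zygotes to 20 µM DRB, a nucleoside analogue that inhibits the kinase CDK9 and so blocks elongation by RNA polymerase II, starting 6 h after fertilization and lasting 20 h, then washed and grown for 26 h in KSOM medium without it. Con embryos carry the label Con; the labels do not say whether they received the vehicle, and for strain, sex and the number of embryos per library the sources used here give nothing. The hours above are given for DRB embryos only, and Con embryos are set beside them by the 4-cell label. RNA was measured by Smart-Seq2, which amplifies full-length cDNA from small samples with an oligo-dT primer, and the values are FPKM, fragments scaled to transcript length and to the library's total.

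Pro-survival proteins such as Mcl1 and Bcl-xL, the long product of Bcl2l1, hold the effectors in check at the outer mitochondrial membrane. BH3-only proteins are induced or activated by stress and bind the pro-survival proteins, and some of them also engage the effectors directly; active Bax and Bak1 then open pores that release cytochrome c. Mcl1 is short-lived both as mRNA and as protein, which is why inhibitors of CDK9 are used to lower it in cultured tumour cells, and mouse embryos without Mcl1 die around implantation. The comparison asks what these transcripts looked like at the 4-cell stage after transcription had been blocked and released.

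The mRNA pool of the 10 genes was dominated by 3 of different roles, Mcl1, Bcl2l11 and Bax. Together these made up 90.4%, 93.4% and 94.1% of the summed FPKM of the 10 genes in DRB replicates 1 to 3, and 84.5%, 94.3% and 95.9% in Con replicates 1 to 3. Bcl2 family genes outside the 10 do not enter this sum, and Bnip3 and Bnip3l among them were above Mcl1 in every library. The promoters of Mcl1, Bcl2l11 and Bax are shown because these genes carry most of the summed FPKM of the 10. The ratio of Bcl2l11 to Bax is also described below, for a pair chosen after the values were seen. Each covers 250 bases before and 50 bases from the transcription start on, from RefSeq on GRCm38.p6, written 5′ to 3′ on the gene's own strand. Capitals mark every match, on either strand, to the GC box (GGGCGG), the E-box (CACGTG), the CCAAT box (CCAAT), the forkhead core (GTAAACA) or the TATA box (TATAAA); no base lies under more than 1 of these motifs.
Mcl1, chr3:95658471-95658770, plus strand: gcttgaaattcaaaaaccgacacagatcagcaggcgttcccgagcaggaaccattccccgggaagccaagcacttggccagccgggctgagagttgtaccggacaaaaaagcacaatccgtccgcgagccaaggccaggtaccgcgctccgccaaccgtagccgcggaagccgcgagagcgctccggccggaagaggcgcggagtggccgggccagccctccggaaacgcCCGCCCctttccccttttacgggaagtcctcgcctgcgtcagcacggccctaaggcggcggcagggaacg
Bcl2l11, chr2:128125788-128126087, plus strand: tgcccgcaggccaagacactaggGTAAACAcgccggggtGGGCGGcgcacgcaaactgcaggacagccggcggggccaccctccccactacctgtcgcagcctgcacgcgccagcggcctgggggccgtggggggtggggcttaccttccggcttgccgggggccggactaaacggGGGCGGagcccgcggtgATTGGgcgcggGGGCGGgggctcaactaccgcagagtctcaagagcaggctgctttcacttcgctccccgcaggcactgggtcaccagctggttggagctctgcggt
Bax, chr7:45466849-45467148, minus strand: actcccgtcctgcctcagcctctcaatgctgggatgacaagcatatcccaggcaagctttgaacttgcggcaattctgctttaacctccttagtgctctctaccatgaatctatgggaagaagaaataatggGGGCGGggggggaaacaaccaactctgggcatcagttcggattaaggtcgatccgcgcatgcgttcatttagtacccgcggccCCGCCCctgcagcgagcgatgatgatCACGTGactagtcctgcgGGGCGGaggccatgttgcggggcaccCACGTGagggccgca
The Mcl1 window holds 1 GC box, the Bcl2l11 window 3 GC boxes, 1 CCAAT box and 1 forkhead core, and the Bax window 3 GC boxes and 2 E-boxes. Bcl2l11 has 2 promoters in the table, of which the one at the start of the annotated gene is printed; the other, at chr2:128127325-128127624, holds 3 GC boxes, 2 CCAAT boxes and no forkhead core. Of 32851 promoters of this length in the table, 35.7% hold a GC box, 7.2% an E-box, 37.4% a CCAAT box, 3.6% the forkhead core and 13.6% a TATA box. The p53 half-site, a decamer that is only a part of a full p53 site, was found 1 time in the Bax window. It was in no other promoter matched to the 10 genes, those of Bbc3 included, and 8.4% of all promoters hold it. The protein p53 induces Bax in many cell types. These matches describe the letters of the windows and were not tied to the expression values. RefSeq promoters were matched for 8 of the 10 genes. None was matched for Bcl2l10 or Pmaip1, so those 2 genes were not searched for the p53 half-site or the other motifs.

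Libraries were alike in depth, with 22300000 to 25300000 fragments estimated from the steps of low FPKM values. Pearson's r of log2 values over 11893 genes was 0.909 to 0.937 within DRB, 0.935 to 0.944 within Con and 0.869 to 0.915 between the groups. Mitochondrial genome transcripts took 23.9% to 26.4% of all FPKM in DRB and 12.2% to 20% in Con, and Con replicate 1 had 22102 genes above 0, against 18485 to 19895 in the other libraries. All 10 genes of a list of oocyte and cleavage-stage embryo genes, Zp3 and Gdf9 among them, were tested. Of these, 0 were called, where 2.48% of all tested genes were. Groups did not overlap for 3 of them, where 23.8% of all tested genes had such groups, so both counts were near the background. The list summed to 152.1 to 280.2 FPKM in DRB and 226.6 to 336.3 FPKM in Con. Of 10 cumulus cell markers 5 were at 0 in every library, the defining Amh, Fshr and Cyp19a1 among them, and the sum of the list, nearly all of it Gja1 and Amhr2, was 143.7 to 275.8 FPKM in DRB and 213 to 387.1 FPKM in Con. Of 9 sperm markers 2, Tnp2 and Smcp, were at 0 in every library, and the list summed to 12.5 to 24.2 FPKM in DRB and 12.7 to 22.7 FPKM in Con. The 8 blood cell markers, led by globin genes, summed to 47.1 to 87.6 FPKM in DRB and 74.4 to 115.8 FPKM in Con, none at 0 in every library. The part of these markers in the results was not tested. In these embryo libraries fewer cells and less RNA per cell cannot be told apart.

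**Figure D1:**
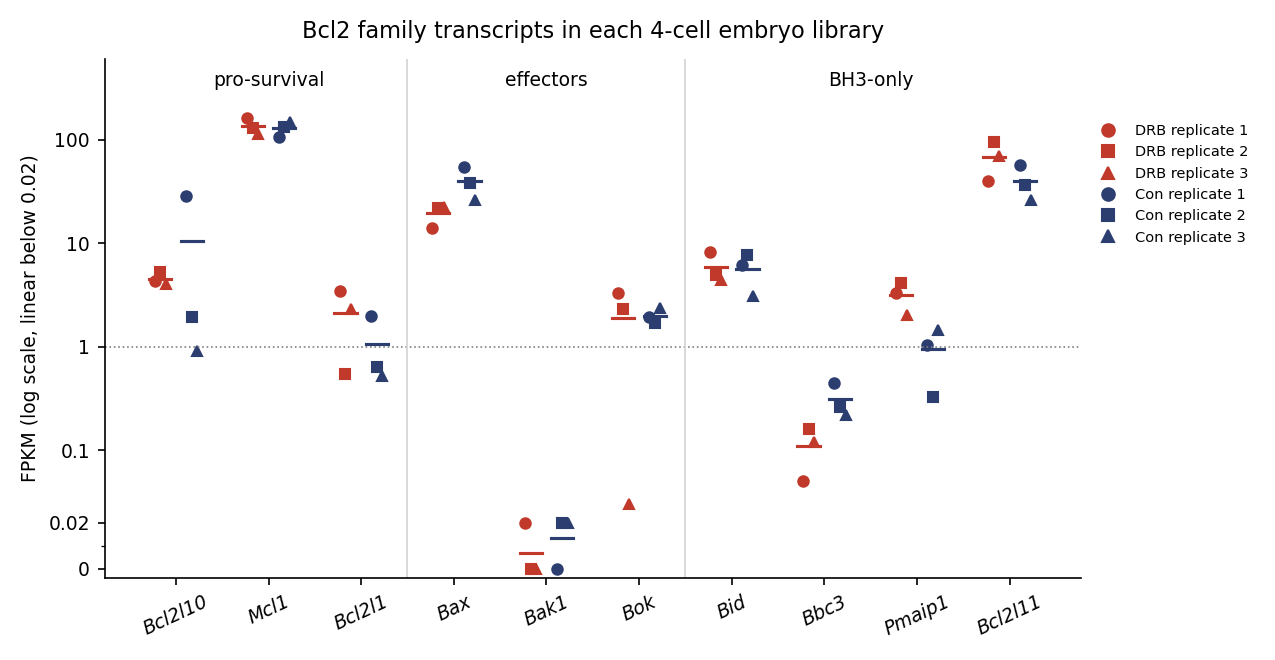
FPKM of the 10 Bcl2 family genes (vertical axis, logarithmic and linear below 0.02) in each library, with DRB libraries in red left of Con libraries in blue, 1 symbol shape per replicate and bars at group means. Mcl1 stands highest in all 6 libraries, Bak1 lowest, and Bcl2l10 is spread from 0.92 to 28.4 FPKM within Con; the dotted line marks 1 FPKM, the minimum used for testing.

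Changes were tested with limma on log2(FPKM + 1) for genes with at least 1 FPKM in at least 3 libraries, with p-values adjusted by Benjamini-Hochberg over all 11893 tested genes and called below 0.05. Of the 10 genes 8 passed this filter, Bak1 and Bbc3 did not, and 0 of the 8 were called, where 2.48% of all tested genes were called (182 or 1.53% higher and 113 or 0.95% lower in DRB; the higher share of the calls, 61.7%, was 73% with median-of-ratios scaling and 72.2% with mitochondrial genes left out). At an unadjusted limma p below 0.05 there were 2 of the 8, Bax and Pmaip1, where 18.1% of all tested genes were. The groups did not overlap for the same 2 genes, where 23.8% of all tested genes had groups that did not overlap, so this share of the family was near the background. The median log2 fold change of the 8 was 0.07, beside -0.09 for all tested genes. In 1 direction, Pmaip1 was the only member above Con without overlap, where 9.85% of all tested genes were, and Bax the only tested member below Con without overlap, where 13.9% were. Bcl2l10, Bcl2l1 and Pmaip1 reached the filter with 3, 2 and 3 DRB libraries and 2, 1 and 2 Con libraries at 1 FPKM or more.

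Mcl1 (ENSMUSG00000038612.16, chromosome 3, 95658788 to 95663176, plus strand, GRCm38) stood at 161.2, 129.6 and 113.5 FPKM in DRB replicates 1 to 3, against 105.1, 133.8 and 148.6 FPKM in Con replicates 1 to 3. The groups overlapped, with both the highest value in DRB replicate 1 and the lowest in Con replicate 1. The means were 134.8 ± 24.2 FPKM in DRB and 129.1 ± 22.1 FPKM in Con (SD, n = 3), a log2 fold change of 0.06 ± 0.27 SE (adjusted p by limma 0.936). Its 95% interval, from 0.691-fold to 1.57-fold, was the narrowest among the 8 tested of the 10 genes, and it leaves room for changes of that size in either direction. Mcl1 ranked between the 94.3 and 95.9 percentiles of the genes above 0 in each library, and it made up 94.7% to 95.7% of the pro-survival FPKM in DRB and 77.6% to 99% in Con.

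Bcl2l10 (ENSMUSG00000032191.6, chromosome 9, 75347758 to 75351632, plus strand), a family member known for its expression in oocytes, which in mouse has been described both as restraining and as promoting death, had 4.33, 5.26 and 4.04 FPKM in the DRB libraries, against 28.4, 1.93 and 0.92 FPKM in the Con libraries. The DRB values lay close together, while Con replicate 1 was far above every other library and the other Con libraries were below all of DRB. The log2 fold change was 0.01 ± 0.83 SE (adjusted p by limma 0.997), with an interval from 0.284-fold to 3.56-fold. Without Con replicate 1 the log2 fold change was 1.22 (adjusted p 0.294, where all its alternatives ran from there to 1), and without Con replicate 3 it was -0.75 (adjusted p 0.713). Con replicate 1 is also the library with the most genes above 0 and the lowest mitochondrial share, and their part in the Bcl2l10 result was not tested.

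Bcl2l1 (ENSMUSG00000007659.18, chromosome 2, 152780668 to 152831728, minus strand) was low, at 3.46, 0.54 and 2.31 FPKM in DRB and 2, 0.64 and 0.52 FPKM in Con. The groups overlapped and each held 1 or more libraries under 1 FPKM. The log2 fold change was 0.54 ± 0.49 SE (adjusted p by limma 0.631). A value per gene does not separate its long, pro-survival form from its short form, which promotes death.

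Among the effectors Bax (ENSMUSG00000003873.11, chromosome 7, 45461697 to 45466898, minus strand), which moves to mitochondria when activated, had 14, 21.7 and 22.6 FPKM in the DRB libraries, against 55, 38.1 and 26.2 FPKM in the Con libraries. All 3 DRB libraries were below all 3 Con libraries, with Con replicate 3 the nearest to them. The means were 19.4 ± 4.72 FPKM in DRB and 39.8 ± 14.5 FPKM in Con (SD, n = 3), and the log2 fold change was -0.96 ± 0.36 SE, or 0.513-fold with an interval from 0.296 to 0.89. With an unadjusted limma p of 0.0219 and an adjusted p of 0.191, Bax was not called, nor was it under any of 15 alternatives (adjusted p 0.157 to 0.449). With mitochondrial genes, whose share differed between the groups, left out of the scaling, the log2 fold change of Bax was -0.84. It was -0.70 without Con replicate 1, the library with the most Bax. The gene shares 192 exon bases with the model gene Gm45808 on the same strand, which was listed at 0 in all 6 libraries.

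Bak1 (ENSMUSG00000057789.14, chromosome 17, 27019810 to 27029009, minus strand), the effector that resides in the mitochondrial membrane, was at 0.02, 0 and 0 FPKM in DRB and at 0, 0.02 and 0.02 FPKM in Con. By the estimated depth, 0.02 FPKM is about 1 fragment, so Bak1 was at the detection limit in every library of both groups, and no fold change is given. It lies in part across Ggnbp1, on the opposite strand, which had 0.81 to 1.73 FPKM in DRB and 2.31 to 4.07 FPKM in Con.

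Bok (ENSMUSG00000026278.14, chromosome 1, 93685660 to 93695764, plus strand), a relative of Bax and Bak1, had 3.34, 2.32 and 0.03 FPKM in DRB and 1.95, 1.68 and 2.37 FPKM in Con. DRB replicate 3 stood apart with about 1 fragment, against about 51 to 102 fragments in the other libraries, and the other DRB libraries lay among or above the Con values. The log2 fold change was -0.28 ± 0.54 SE (adjusted p by limma 0.845), and without DRB replicate 3 it was 0.35 (adjusted p 0.734, within 0.539 to 0.923 over all alternatives). With a pseudocount of 0.1, which gives the near-absent library more weight, it was -1.02. Bax made up 80.7% to 99.9% of the effector FPKM in DRB and 91.6% to 96.6% in Con.

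Bcl2l11 (ENSMUSG00000027381.16, chromosome 2, 128126038 to 128162547, plus strand) encodes Bim, which binds every pro-survival protein of the family, and it was the most abundant BH3-only transcript in all 6 libraries. It had 39.6, 96 and 70.3 FPKM in the DRB libraries, against 57.1, 36.2 and 26.4 FPKM in Con. The groups overlapped, because DRB replicate 1 was below Con replicate 1, while DRB replicates 2 and 3 were above every Con library. The means were 68.6 ± 28.2 FPKM in DRB and 39.9 ± 15.7 FPKM in Con (SD, n = 3), with a log2 fold change of 0.75 ± 0.39 SE (adjusted p by limma 0.348) and an interval from 0.922-fold to 3.05-fold. Without DRB replicate 2 it was 0.46, and without Con replicate 3 it was 0.49 (adjusted p 0.664 and 0.636, within 0.182 to 0.664 over its alternatives). Bcl2l11 made up 77.2% to 91.5% of the BH3-only FPKM in DRB and 81.5% to 88.2% in Con.

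Pmaip1 (ENSMUSG00000024521.8, chromosome 18, 66458533 to 66465565, plus strand) encodes Noxa, a p53-induced protein that binds chiefly Mcl1. It had 3.32, 4.14 and 2.04 FPKM in the DRB libraries, against 1.05, 0.33 and 1.45 FPKM in Con. All DRB libraries were above all Con libraries. The means were 3.17 ± 1.06 FPKM in DRB and 0.943 ± 0.568 FPKM in Con (SD, n = 3), and the log2 fold change was 1.11 ± 0.43 SE, the largest of the 8 tested genes, with an interval from 1.13-fold to 4.15-fold on the log2(FPKM + 1) scale, which understates changes at such low levels. With a pseudocount of 0.1 in place of 1 it was 1.78. Its unadjusted limma p was 0.0244 and its adjusted p 0.2, so it was not called, and it was called in 0 of 14 alternatives (adjusted p 0.168 to 0.513).

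Bbc3 (ENSMUSG00000002083.13, chromosome 7, 16308393 to 16318205, plus strand) encodes Puma, a strong p53-induced killer, and was below the filter. It had 0.05, 0.16 and 0.12 FPKM in DRB, about 1.9, 6 and 5 fragments, and 0.45, 0.26 and 0.22 FPKM in Con, about 17, 10 and 8.1 fragments. All DRB values were below all Con values, and the exact two-sided permutation p was 0.1, the smallest that 3 libraries against 3 allow. Of the members named here as p53-induced, Pmaip1 was above Con and Bax and Bbc3 were below it. Neither Pmaip1 nor Bax was called, and the part of p53 in these values was not tested. Trp53 itself, the gene of p53, had 3.37 to 4.23 FPKM in DRB and 0.67 to 5.63 FPKM in Con (limma adjusted p 0.833).

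Bid (ENSMUSG00000004446.12, chromosome 6, 120891930 to 120916853, minus strand), which links death receptors to mitochondria after cleavage by caspases, had 8.3, 4.93 and 4.39 FPKM in DRB and 6.16, 7.65 and 3.12 FPKM in Con. The groups overlapped, with the highest value in DRB and the lowest in Con. The log2 fold change was 0.07 ± 0.44 SE (adjusted p by limma 0.953). Bid shares 628 exon bases with Bcl2l13 on the opposite strand, which had 11.1 to 25.8 FPKM in DRB and 15.4 to 16.9 FPKM in Con; the sources used here do not say whether fragments were counted by strand.

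**Figure D2:**
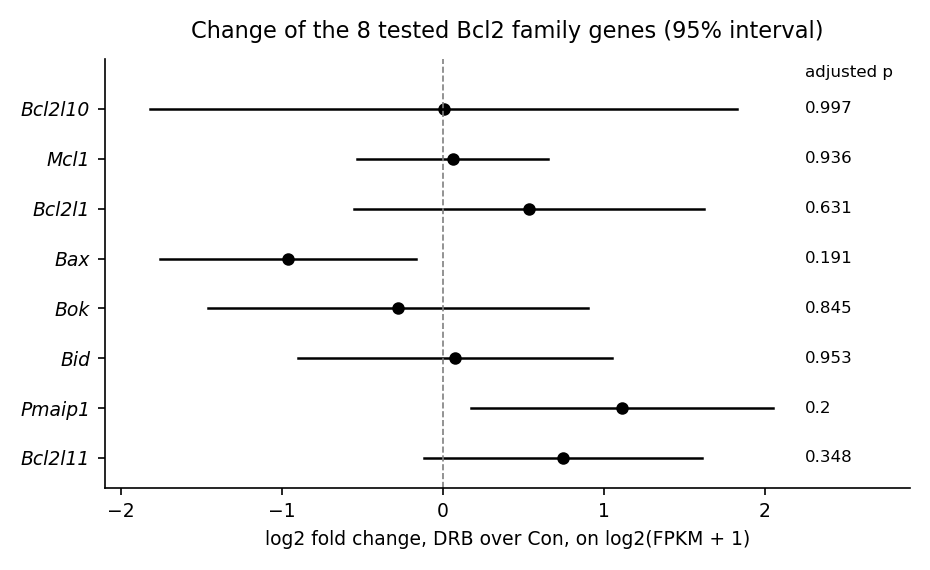
Log2 fold change of DRB over Con on the log2(FPKM + 1) scale (horizontal axis) for the 8 tested Bcl2 family genes, with 95% limma intervals as lines and adjusted p-values at the right. The intervals of Bax, at -0.96, and Pmaip1, at 1.11, lie on 1 side of 0 before adjustment, and the adjusted p-values run from 0.191 to 0.997.

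FPKM is per length, but the sources used here do not state the transcript lengths behind it. The order of genes, and the level of a ratio between them, depend on those lengths. The order of levels began with Mcl1 in both groups, and its range did not overlap that of the next gene in either. In DRB the next places were held by Bcl2l11 at 68.6 FPKM, Bax at 19.4 FPKM and Bid at 5.87 FPKM, each with a range apart from its neighbour above. From Bid through Bcl2l10, Pmaip1, Bcl2l1 and Bok to Bbc3, neighbouring ranges overlapped in DRB. In Con, Bcl2l11 and Bax had nearly the same mean, at 39.9 and 39.8 FPKM, and their ranges overlapped, as did those of Bax and Bcl2l10 and of Bcl2l10 and Bid. Below Bid, and apart from its range, Bok followed in Con, and from Bok through Bcl2l1 and Pmaip1 to Bbc3 neighbouring ranges overlapped; Bak1 was last in both groups, below Bbc3 and without overlap.

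Within each library the ratio of Bcl2l11 to Bax, which no scaling of the library can alter, was 2.83, 4.42 and 3.11 in DRB and 1.04, 0.95 and 1.01 in Con. The Con ratios were all near 1 although both genes were highest in Con replicate 1 and lowest in Con replicate 3, and every DRB ratio was above them. The means were 3.45 ± 0.852 in DRB and 0.999 ± 0.045 in Con (SD, n = 3), a difference in mean log2 ratio of 1.76, which was 1.57 to 1.89 when 1 library was left out. This pair was chosen after the values were seen, so its ratio is a description and carries no test.

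The summed FPKM of the 3 pro-survival genes over that of the 7 effector and BH3-only genes was 2.46, 1.05 and 1.21 in DRB and 1.11, 1.62 and 2.51 in Con. Both groups covered the same range, with means of 1.57 ± 0.775 in DRB and 1.75 ± 0.708 in Con (SD, n = 3). The 2 parts of the latter sum differed in direction. Effector FPKM summed to 21.3 ± 3.51 in DRB and 41.8 ± 14.3 in Con, without overlap. BH3-only FPKM summed to 77.8 ± 27 in DRB and 46.8 ± 16.9 in Con, with overlap, and most of it was Bcl2l11. Bax made up 80.7% to 99.9% of the effector FPKM in DRB and 91.6% to 96.6% in Con. The effector sum, which also enters the ratio that follows, is therefore largely Bax. Bax was not called, and 13.9% of all tested genes were below Con without overlap. Over the effectors alone, the pro-survival ratio was 9.73, 5.64 and 5.3 in DRB and 2.38, 3.42 and 5.25 in Con, which separates the groups by a narrow margin between DRB replicate 3 and Con replicate 3. The 10 genes together summed to 219.3 to 264.6 FPKM in DRB and 209.7 to 257.2 FPKM in Con. These ratios compare mRNA levels and say nothing of protein.

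**Figure D3:**
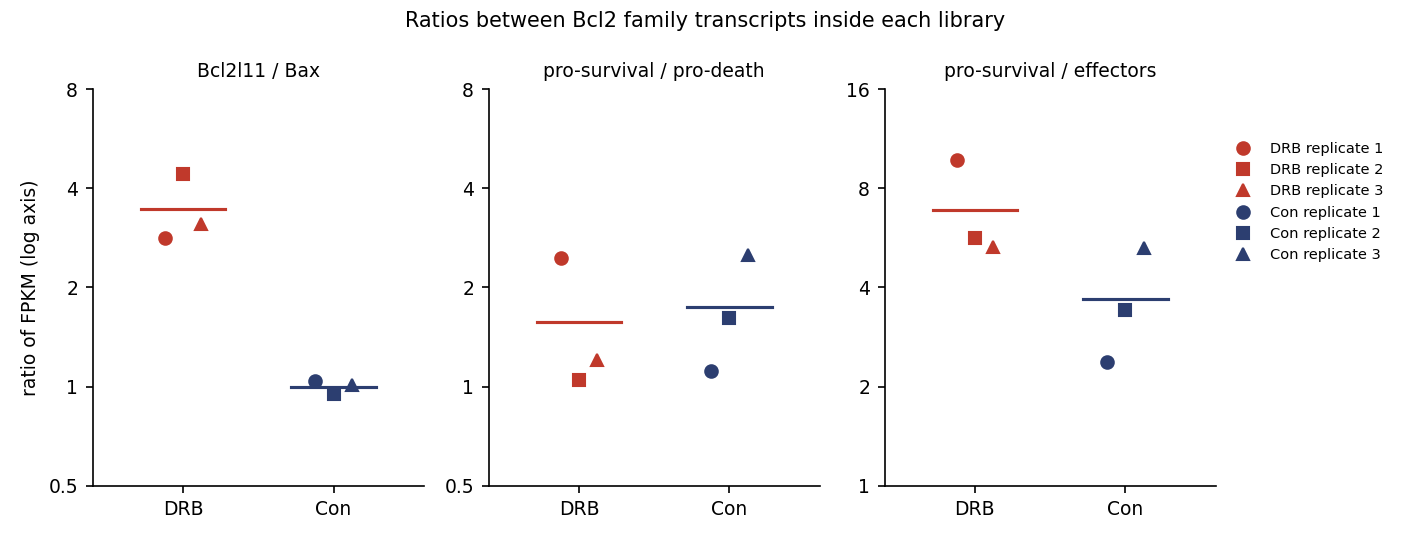
Ratios of FPKM inside each library (vertical axes, log scale), with DRB left of Con, 1 symbol shape per replicate and bars at group means: Bcl2l11 over Bax, the pro-survival sum over the pro-death sum, and the pro-survival sum over the effector sum. The first ratio lies between 2.83 and 4.42 in DRB and between 0.95 and 1.04 in Con, while the second overlaps between the groups.

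The wider pathway was read from 6 lists holding 65 genes, of which 49 were tested. By limma 0 of the 49 were called in either direction, where 2.48% of all tested genes were, so the count was near the background. Of the 49, 7 had an unadjusted p below 0.05 (14.3%, beside 18.1% of all tested genes), 2 higher and 5 lower in DRB. The median log2 fold change was -0.21, beside -0.09 for all tested genes, and 16 of the 49 were positive, beside 5234 of the 11893 tested genes.

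In the 15 other Bcl2 family genes 7 were tested, 0 were called, 2 were positive and the median log2 fold change was -0.55. The most abundant were Bnip3l and Bnip3, receptors that mark mitochondria for autophagy. Bnip3 had 187.9, 284.2 and 251.8 FPKM in the DRB libraries, against 455.9, 466.2 and 400.4 FPKM in Con, without overlap, and a log2 fold change of -0.88 ± 0.26 SE (adjusted p by limma 0.0975). Bnip3l had 323.4 to 330.1 FPKM in DRB against 392.1 to 817 FPKM in Con, also without overlap, with a log2 fold change of -0.66 ± 0.30 SE (adjusted p by limma 0.278). Bcl2 itself was at most 0.36 FPKM in DRB and 0.01 FPKM in Con, and Hrk and Bcl2a1a were listed at 0 in every library. Bcl2l14 and Bad, named after their values were seen, had 42.8 to 74.7 and 5.59 to 15.8 FPKM in DRB, and 60.4 to 118.9 and 15.3 to 27 FPKM in Con (limma adjusted p 0.439 and 0.301).

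Of 14 caspase and apoptosome genes 12 were tested, 0 were called, 5 were positive and the median was -0.08. The most abundant were Cycs, encoding the cytochrome c that leaves mitochondria, and Parp1, a DNA repair enzyme cut by caspases. Cycs had 195 ± 45 FPKM in DRB and 184 ± 76.7 FPKM in Con (limma adjusted p 0.87), and Parp1 had 64.6 ± 23.3 FPKM in DRB and 120 ± 32.4 FPKM in Con (SD, n = 3; limma adjusted p 0.192). Endog, a mitochondrial nuclease, had the smallest p of the 49 genes, with 75.4, 86.1 and 64.2 FPKM in the DRB libraries, against 26, 41.8 and 31.4 FPKM in Con. All DRB libraries were above all Con libraries, with a log2 fold change of 1.18 ± 0.30 SE and a limma adjusted p of 0.0631. Endog was called in 2 of 15 alternatives, with a limma adjusted p of 0.0488 at a minimum of 5 FPKM and 0.0478 with median-of-ratios scaling. Among the others the adjusted p was 0.232 with no filter, 0.115 with no trend, 0.101 with the replicate block and 0.0871 to 0.187 with 1 library left out. Casp9, the initiator caspase of the apoptosome, was below the filter, at 0.2, 0 and 0.01 FPKM in DRB and 0.29, 0.92 and 1.07 FPKM in Con, while its platform Apaf1 had 26.8 to 67 FPKM in DRB and 28 to 54.6 FPKM in Con. Endog, Casp9 and Apaf1 were named after their values were seen, as were Casp6 and Vdac3.

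In the other lists 0 genes were called either. Of the inhibitor of apoptosis proteins 5 of 6 were tested, 1 was positive and the median was -0.23; Birc5, which also serves mitosis as survivin, had 420 ± 68.8 FPKM in DRB and 490 ± 51.6 FPKM in Con, and Birc6 had 170 ± 94.9 FPKM in DRB and 154 ± 42.3 FPKM in Con (SD, n = 3; limma adjusted p 0.685 and 0.977). Of the death receptor pathway 5 of 9 were tested, 0 were positive and the median was -0.48. Traf2, an adaptor of receptor signalling, had 6.79, 8.84 and 6.95 FPKM in DRB and 15.4, 15.3 and 14.4 FPKM in Con, without overlap (log2 fold change -0.92 ± 0.34 SE, limma adjusted p 0.188), and Cflar, an inhibitor of caspase 8, had 11.1 ± 1.97 FPKM in DRB and 15.1 ± 3.85 FPKM in Con (SD, n = 3; limma adjusted p 0.631). Of 12 regulators of the family 11 were tested, 8 were positive and the median was 0.19. Usp9x, a deubiquitinase that stabilises the Mcl1 protein, had 82.4, 56.9 and 50.8 FPKM in DRB and 38.8, 27.1 and 38.8 FPKM in Con, without overlap (log2 fold change 0.83 ± 0.31 SE, limma adjusted p 0.189), and Atf4 had 57.9 ± 8.49 FPKM in DRB and 52.9 ± 18.3 FPKM in Con (SD, n = 3; limma adjusted p 0.838). All 9 mitochondrial partners were tested, 0 were positive and the median was -0.46, with Tomm22 at 405 ± 105 FPKM in DRB and 550 ± 90.3 FPKM in Con and Bcap31 at 338 ± 110 FPKM in DRB and 419 ± 124 FPKM in Con (SD, n = 3; limma adjusted p 0.408 and 0.651). Casp6 and Vdac3 completed the genes with an unadjusted limma p below 0.05, with log2 fold changes of -0.96 and -1.03 (adjusted p 0.274 and 0.135).

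**Figure D4:**
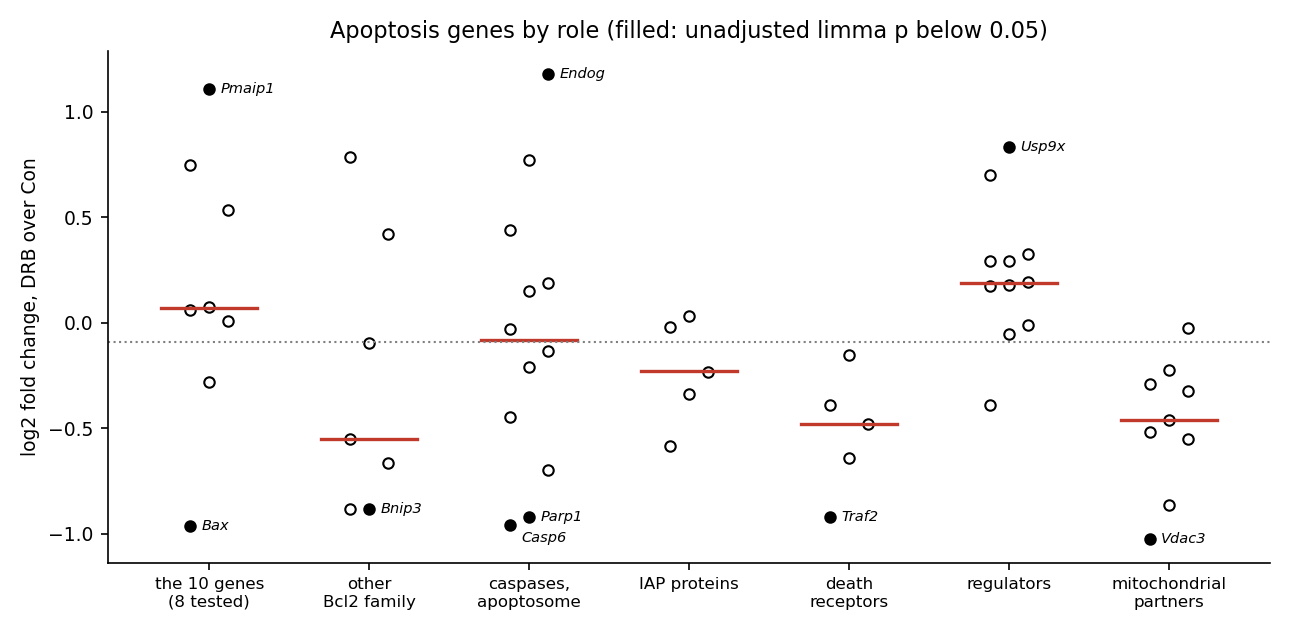
Log2 fold change of DRB over Con on the log2(FPKM + 1) scale (vertical axis) for each tested gene, grouped by role, with filled points for an unadjusted limma p below 0.05, red bars at list medians and a dotted line at -0.09, the median of all tested genes. Medians run from -0.55 in the other Bcl2 family genes to 0.19 in the regulators, and 0 of the genes shown passed the adjusted test.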

How the data were processed

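RNA of 6 libraries of mouse 4-cell embryos, 3 DRB and 3 Con, was measured by Smart-Seq2 with paired-end Illumina sequencing, per the labels' protocols. The submitters' processing notes name cutadapt 1.16, STAR and mm10; which tool made the expression values is not known from the sources used here. What the authors deposited is 1 FPKM value for each gene, named so in the file headers and rounded to 2 decimals. FPKM is relative to the library's total, so more of abundant transcripts lowers the rest. GENCODE M21 on GRCm38, the assembly of mm10, gave positions.

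The values are FPKM, so limma 3.58.1 in R 4.3.3 was fitted to log2(FPKM + 1), with a mean-variance trend and the group as the single term, two-sided, on 11893 genes. Standard errors and intervals are limma's. Nothing says that replicates came from separate cultures, and p-values then reflect the spread of these samples alone, which may be technical. The members and lists were chosen with earlier results of these data known; besides the members, the rule named each pathway list's called genes, of which there were 0, and its 2 most abundant tested genes. Fragments were estimated as FPKM times transcript length less 160 to 180 bases times depth, for the longest transcript of a gene; 71.5% to 80% of low values came within 0.15 of a whole number.

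Data were simulated from these 11893 genes, with 200 of them changed in each of 5 runs. Of the genes given log2 changes of 1, 2, 3 and 4, 3.6%, 52.4%, 77.6% and 93.2% were recovered, and 4.3% of calls were false. Recovery depends on the share of genes changed, which is not known for the real data. Alternatives were a pseudocount of 0.1, no filter, a minimum of 5 FPKM, the replicate number as a block, median-of-ratios scaling, leaving out mitochondrial genes, no trend, a robust prior and leaving out each library. Transcripts of the 10 genes were searched against all others with BLAST 2.17.0 at 95% identity over 200 bases, and matches were found to the overlapping genes Ggnbp1 and Bcl2l13. Python 3.11.15 drew the figures and computed the summaries.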

Additional observations from a re-analysis of the deposited data

How the results depend on the processing

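Of the 10 genes 0 were called in any setting, and of 338 values of 23 named genes under the alternatives 323 kept their direction and their side of the threshold. With 3 libraries a group, by the simulation, changes of 1 on the log2 scale are mostly missed at the levels and the share of changed genes simulated. Those levels leave out Bcl2l1, Bok and Pmaip1. Over all genes 295 were called, against 164 with a pseudocount of 0.1, 6 with no filter, 171 with the replicate block, 29 with no filter and a pseudocount of 0.1, added after seeing the data, and 47 (without DRB replicate 1) to 220 (without DRB replicate 3) with 1 library left out; among the rest, leaving out DRB replicate 2 gave 151, and the counts lacking Con replicates 1 to 3 in turn were 148, 110 and 106. Leaving out mitochondrial genes moved the median of all genes from -0.09 to 0.02. Of the pathway genes 1, Endog, was called with a minimum of 5 FPKM and 1, again Endog, with median-of-ratios scaling. With 1 library left out the log2 fold change changed sign for 7 genes that were never called: it ran from -0.75 to 1.22 for Bcl2l10, -0.08 to 0.18 for Mcl1, -0.69 to 0.35 for Bok, -0.24 to 0.30 for Bid, -0.20 to 0.44 for Cycs, -0.39 to 0.44 for Birc6 and -0.07 to 0.43 for Atf4. The mean log2 ratio of pro-survival to pro-death FPKM differed by -0.18 (DRB minus Con), by 0.92 with BH3-only genes left out, 0.28 with Mcl1 left out, -0.10 with Bcl2l10 left out and -0.56 to 0.12 with 1 library left out; the SD between replicates of the first of these ratios, with all genes in, was 0.63. No source says what the replicate numbers mark. Deviations of same-numbered libraries from their group means correlated at -0.051 to 0.053, and those of differently numbered libraries at -0.089 to 0.121. With 3 libraries a group, whose deviations are tied to each other, these values cannot decide whether the numbers pair the libraries. The replicate block changed no call among the 10 genes or the pathway genes. Bcl2l1 passed the filter in 3 of the 6 fits with a library left out, and Bcl2l10, Bcl2l1, Bok and Pmaip1 were not tested at a minimum of 5 FPKM. The causes were not tested.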
